A study of Mus musculus with 8 samples.

Results

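Kcnk13, St7, Lifr, Tanc2, Stau2, Havcr1 and Parm1 are 7 of the 32285 genes counted in single spleen cells of control and cKO mice. They were chosen by symbol, on their levels in resting B cells of these same libraries, which were higher in cKO than in control mice, so their values in that contrast are given as a description, without a test. Each symbol matched 1 row of the gene list. The values below follow the 7 genes through resting B cells, the other B subsets, T, NK and myeloid cells, and through single cells.

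The cKO mice carried Eif3e fl/fl, the Cγ1Cre allele and the Rosa26-YFP LSL reporter, and the controls carried Cγ1Cre and the Rosa26-YFP LSL reporter with an intact Eif3e. All mice were 2 months old and on the C57BL/6J background. Cre is expressed from the immunoglobulin γ1 locus, which becomes active in stimulated B cells, so both genotypes share the Cre and the reporter and only part of the B cells of either genotype has recombined. From each genotype, total splenocytes and YFP+ cells were sorted and sequenced by a 3′ droplet method, which gave 8 libraries in 4 groups of 2, with 1 library per group in each of 2 batches. The labels give the source as spleen, while the harvest protocol names lymph nodes beside the spleen. Each library held pooled tissue of several mice, so p-values measure the spread between pools. Neither YFP nor Cre is in the gene list, so recombination could not be read per cell.

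The libraries held 83704 cells after filtering, with 71894780 to 105224903 UMIs (unique molecular identifiers, 1 per captured RNA molecule) each. In naive B-like cells Eif3e itself stood at 200 and 239 CPM (UMIs of a gene scaled by all UMIs of the class) in the control total libraries and at 223 and 285 CPM in the cKO total libraries. It stood at 210 and 260 CPM in the control YFP+ libraries and at 286 and 352 CPM in the cKO YFP+ libraries. The targeted gene was not lower in cKO cells. Reads of the 3′ end do not check the genotype, since that end need not be part of the deletion. The female transcript Xist was present at 524 and 638 CPM in the cKO total and cKO YFP+ libraries of batch 1 and at 0.348 CPM or less in the other 6, beside Y-linked transcripts in all 8.

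Naive B cells are the resting, recirculating B cells of the follicle, which carry surface IgD and wait for antigen. Membrane proteins are the larger part of the 7 genes. Lifr encodes the receptor chain for leukemia inhibitory factor, which pairs with gp130 (Il6st) and signals through JAK kinases and STAT3. Kcnk13 encodes a potassium channel of the tandem pore domain family, known best as THIK-1 of microglia. Havcr1 encodes TIM-1, a phosphatidylserine receptor that marks regulatory B cells, and Parm1 encodes a mucin-like membrane protein. St7 encodes a multipass membrane protein first described as a candidate tumor suppressor. Stau2 encodes a double-stranded RNA-binding protein of mRNA transport in neurons, and Tanc2 a scaffold protein of the postsynaptic density.

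The 7 genes lie on 6 chromosomes of the mouse genome (build GRCm38). Kcnk13 occupies chr12:99964499-100062682, St7 chr6:17692933-17943025, Lifr chr15:7090614-7197489, Tanc2 chr11:105589986-105929304, Havcr1 chr11:46735080-46779578 and Parm1 chr5:91517615-91626894, all on the plus strand. Stau2 occupies chr1:16228674-16520112 on the minus strand. All 7 are protein-coding, from 44.5 kb (Havcr1) to 339.3 kb (Tanc2) long.

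Promoter windows of 300 bases (250 before to 50 after an annotated start, RefSeq, GRCm38.p6) were given for 6 of the 7 genes, 11 windows in all, and none for Stau2. They were searched on both strands for STAT6 (TTCNNNNGAA), STAT (TTCNNNGAA), AP-1 (TGANTCA), CRE (TGACGTCA), IRF (GAAANNGAAA), E-box (CACGTG) and TATA box (TATAAA) letters, which 6.95%, 8.30%, 7.81%, 1.79%, 3.44%, 7.15% and 13.6% of the 32851 promoter windows held. The windows of the 3 genes with the largest ratios of cKO over control in total naive B-like cells are shown, all on the plus strand, with matches in capitals. For St7, the third of 3 starts is printed, which was picked after the matches were seen and held the STAT6 letters at base 191 and the CRE letters at base 250. Its first start held the E-box letters at base 275 and the TATA box letters at base 241, and its second start held no match. The Kcnk13 window held the STAT6 letters at base 3. For Lifr, the first of 2 starts is printed, and neither start held a match.
Kcnk13, chr12:99964249-99964548: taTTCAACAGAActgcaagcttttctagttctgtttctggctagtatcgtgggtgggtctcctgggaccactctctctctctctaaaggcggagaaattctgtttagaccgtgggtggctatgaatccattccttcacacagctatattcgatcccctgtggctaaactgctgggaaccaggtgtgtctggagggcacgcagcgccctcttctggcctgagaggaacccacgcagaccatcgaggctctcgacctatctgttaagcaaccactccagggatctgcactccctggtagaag
St7, chr6:17748920-17749219: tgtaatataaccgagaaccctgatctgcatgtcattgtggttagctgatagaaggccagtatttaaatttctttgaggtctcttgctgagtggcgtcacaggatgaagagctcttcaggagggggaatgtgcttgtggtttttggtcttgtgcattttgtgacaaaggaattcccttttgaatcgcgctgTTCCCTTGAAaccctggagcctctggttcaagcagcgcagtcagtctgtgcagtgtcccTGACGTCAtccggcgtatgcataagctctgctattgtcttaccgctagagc
Lifr, chr15:7129322-7129621: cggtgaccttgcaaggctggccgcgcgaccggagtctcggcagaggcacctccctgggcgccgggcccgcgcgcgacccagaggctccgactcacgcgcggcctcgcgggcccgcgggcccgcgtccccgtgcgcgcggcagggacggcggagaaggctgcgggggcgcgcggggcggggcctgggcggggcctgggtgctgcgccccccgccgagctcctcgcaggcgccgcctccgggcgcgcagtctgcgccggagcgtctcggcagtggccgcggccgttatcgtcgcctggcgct
No motif was shared by all 3 windows. The printed Lifr window was rich in G and C (81.3%, against a median of 52.7% over all windows), while its second start had 53.3%. The Kcnk13 window was at that median (52.7%). Among the 6 genes, only windows of Kcnk13 and St7 held the STAT6 letters.

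In naive B-like cells, Lifr, Kcnk13 and St7 were many times higher in cKO than in control cells. Lifr stood at 5.97 and 3.15 CPM in the control total libraries of batches 1 and 2 and at 223 and 151 CPM in the cKO total libraries. In YFP+ cells it was at 6.65 and 1.94 CPM in controls and at 170 and 117 CPM in cKO. Every cKO library was far above every control library, and the ratios within a batch were 37.3 and 48.0 in total cells and 25.6 and 60.3 in YFP+ cells. Kcnk13 stood at 2.27 and 1.94 CPM in control total libraries, 57.7 and 70.0 CPM in cKO total, 2.00 and 2.20 CPM in control YFP+ and 51.7 and 67.7 CPM in cKO YFP+ libraries. The channel gene was nearly off in all 4 control libraries and alike in both cKO sorts, at ratios of 25.4 to 36.1. St7 stood at 15.4 and 9.40 CPM in control total libraries, 219 and 212 CPM in cKO total, 21.9 and 11.9 CPM in control YFP+ and 210 and 216 CPM in cKO YFP+ libraries. Its 4 cKO values were nearly equal while its control values differed between the batches, so its ratio ran from 9.56 to 22.6. These sizes depended on the cells counted. Where resting B cells were instead taken cell by cell from all clusters, as cells with a UMI of Cd79a and of Ighd and none of marker genes of dividing, antibody-secreting, T and myeloid cells, the ratios were 8.43 to 17.96 for Kcnk13, whose controls then stood at 5.87 to 7.91 CPM, 22.9 to 61.4 for Lifr and 11.02 to 27.8 for St7.

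Stau2 and Tanc2 were higher in cKO naive B-like cells by smaller factors. Stau2 stood at 23.2 and 19.5 CPM in control total libraries, 107 and 95.8 CPM in cKO total, 29.6 and 22.2 CPM in control YFP+ and 97.3 and 85.8 CPM in cKO YFP+ libraries. Its ratio was 3.29 to 4.91, with no overlap of the groups. Tanc2 stood at 6.30 and 4.06 CPM in control total libraries, 12.03 and 16.1 CPM in cKO total, 10.97 and 7.88 CPM in control YFP+ and 29.9 and 32.9 CPM in cKO YFP+ libraries. The cKO YFP+ libraries were the highest, and the cKO total libraries lay only just above the control YFP+ libraries. Taken cell by cell, Tanc2 had ratios of 2.21 and 6.10 in total and 5.03 and 11.2 in YFP+ cells, and Stau2 4.67 to 6.37.

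Havcr1 and Parm1 were near the limit of detection in total naive B-like cells, and there the difference rests on few molecules. Havcr1 had 2 and 4 UMIs in the control total libraries and 14 and 20 UMIs in the cKO total libraries, which is 0.130 and 0.243 CPM against 0.896 and 1.21 CPM. Parm1 had 2 and 2 UMIs in control total and 28 and 27 UMIs in cKO total libraries, which is 0.130 and 0.121 CPM against 1.79 and 1.63 CPM. The intervals of the Parm1 ratios, for counting error only, ran from 3.48 to 120 in batch 1 and from 3.38 to 117 in batch 2. Taken cell by cell, the total ratios were 1.76 and 50.4 for Parm1 and 2.64 and 3.03 for Havcr1. In YFP+ cells both genes were at a higher level. Havcr1 stood at 3.77 and 3.49 CPM in control YFP+ and at 7.63 and 6.60 CPM in cKO YFP+ libraries, without overlap. Parm1 stood at 41.3 and 17.95 CPM in control YFP+ and at 23.1 and 19.5 CPM in cKO YFP+ libraries. Here the groups overlapped, and Parm1, alone of the 7 genes, was not higher in cKO YFP+ naive B-like cells in both batches (ratios 0.559 and 1.09). This direction depended on which cells were counted: the Parm1 ratios were 1.06 and 1.83 with cluster 0 counted in, and 1.14 and 1.54 where resting B cells were taken cell by cell. For Havcr1 the YFP+ ratios of 2.02 and 1.89 became 6.37 and 6.37 with cluster 0 counted in, and 4.46 and 3.01 taken cell by cell. All 7 genes had both cKO libraries above both controls in total cells and 6 of 7 in YFP+ cells, where 10.3% and 12.4% of all genes tested did so. The rule chose the genes for this, so nothing is read from it. For the same reason the edgeR fit of these classes serves only as background: it called 0.0727% of genes in total and 0.223% of genes in YFP+ naive B-like cells higher in cKO.

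**Figure D1:**
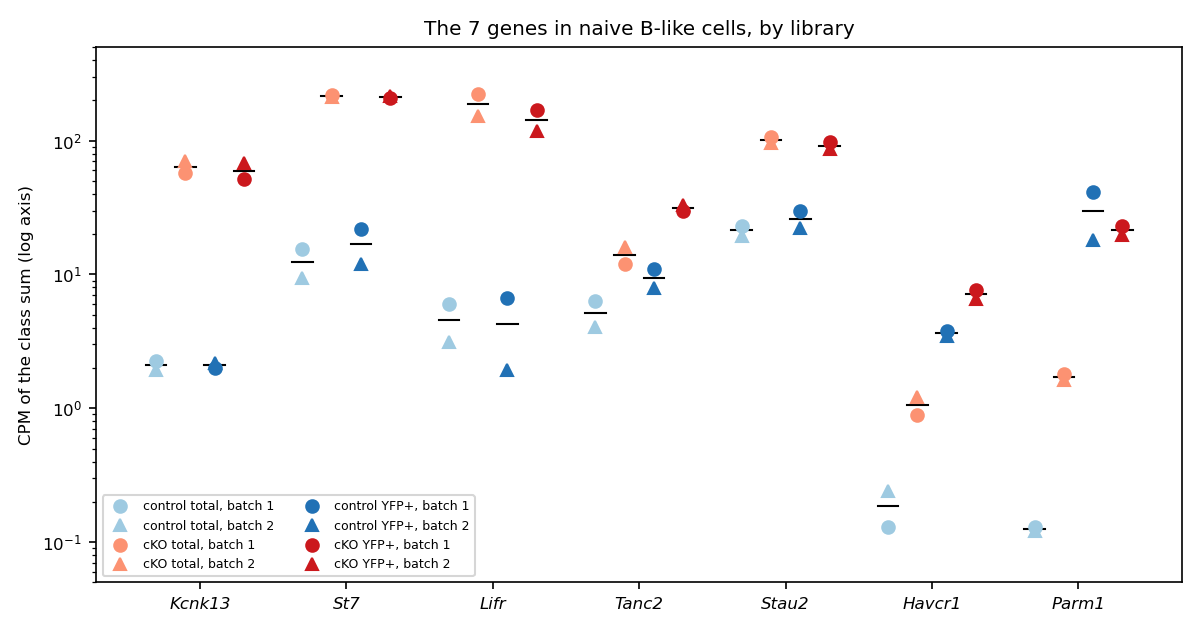
Level of each gene in naive B-like cells, in CPM of the class sum on a log axis, for the 8 libraries (circles batch 1, triangles batch 2, bars the mean of the 2 libraries of a group). Control and cKO points stand far apart for Kcnk13, St7, Lifr and Stau2, while for Parm1 the YFP+ points of the genotypes overlap between 17.95 and 41.3 CPM.

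The naive B-like class was made of 2 clusters that the genotypes filled differently, although the 7 genes were kept out of the clustering. Cluster 1 held 98.8% of the naive B-like cells of control total and 97.8% of those of control YFP+ libraries, whereas cluster 2 held 87.4% in cKO total and 94.7% in cKO YFP+ libraries. Both carried the naive markers, with Ighd at 1071 to 1331 CPM over the 8 libraries of the class, and Xist was among the 10 leading genes of cluster 2. Within cluster 1 the 356, 342, 142 and 96 cKO cells (total batches 1 and 2, then YFP+ batches 1 and 2) had Lifr at 121, 102, 88.0 and 89.6 CPM, where control cells of the same cluster had 5.93, 3.18, 6.57 and 1.83 CPM. Kcnk13 stood there at 22.2, 32.2, 17.95 and 29.0 CPM in cKO against 1.96 to 2.24 CPM in control cells. So the cKO cells that clustered with control naive cells also had higher Lifr and Kcnk13, at lower levels than the class as a whole. St7 (68.5 to 94.9 CPM against 9.35 to 21.2 CPM) and Stau2 (42.0 to 56.1 CPM against 19.4 to 29.5 CPM) behaved alike. Tanc2 did not: it stood at 12.96, 9.20, 16.2 and 2.42 CPM in cKO against 6.33, 3.91, 11.3 and 7.99 CPM in control cells, and Havcr1 and Parm1 had 0 to 3 UMIs in each cKO library of cluster 1. Parm1 was lower there in cKO than in control YFP+ cells, at 5.39 and 2.42 CPM against 41.8 and 17.93 CPM, and Havcr1 had 1 and 0 UMIs in the cKO and 33 and 26 UMIs in the control YFP+ libraries.

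A further B cell cluster, number 0, held nearly only cKO cells and had the highest levels of several of the 7 genes. It was left unnamed because its marker scores reached no class, and it held 12392 cells, of which 26 came from control libraries. It made up 15.5% of all cKO total cells and 44.2% of all cKO YFP+ cells. St7 stood there at 553, 455, 394 and 410 CPM (cKO total batches 1 and 2, then cKO YFP+ batches 1 and 2) and Kcnk13 at 116, 156, 76.1 and 124 CPM. Lifr stood at 257, 169, 147 and 120 CPM and Stau2 at 177, 143, 134 and 122 CPM. St7, Kcnk13 and Stau2 were above the naive B-like class of the same library in all 4 libraries. Tanc2 (42.2 and 67.8 CPM in total, 118 and 130 CPM in YFP+), Havcr1 (7.12 and 8.72 CPM, then 32.9 and 28.7 CPM) and Parm1 (5.40 and 6.40 CPM, then 55.1 and 36.6 CPM) were higher in the YFP+ than in the total libraries of this cluster. With 26 control cells, cluster 0 has no control to be set against.

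The word resting was checked against activation and cycling genes. A UMI of Mki67 or Top2a, which mark dividing cells, was found in 4.30% and 3.37% of naive B-like cells of control total, 5.51% and 7.28% of cKO total, 8.31% and 9.72% of control YFP+ and 10.5% and 10.8% of cKO YFP+ libraries, and in 6.31% to 16.1% of cluster 0 cells. Of 13 activation genes, all 13 were tested in total cells and 12 in YFP+ cells and none passed the test, with medians of −0.32 and −0.31 on the log2 scale of cKO over control. Irf4, a transcription factor of activated B cells, stood at 204 and 225 CPM in control total libraries and at 103 and 65.7 CPM in cKO total libraries (log2 −1.29, SE 0.26, edgeR adjusted p = 0.262). Egr2 went the other way, from 2.14 and 2.73 CPM to 6.02 and 8.93 CPM in the same libraries (log2 1.69, SE 0.33, edgeR adjusted p = 0.237). In total cells 5 of the 13 activation genes lay above 0, and in YFP+ cells 2 of 12. None of the 9 cycling genes passed either. Among the activation genes, 4 in total and 5 in YFP+ cells had an unadjusted edgeR p under 0.05, DESeq2 called 3 in each sort (1 higher and 2 lower in total, 3 lower in YFP+), and with the batch as a block 4 rose and 6 fell in total and 2 rose and 4 fell in YFP+ cells. Irf4 was among those called by DESeq2 in both sorts and under the block in total cells. Egr2 was among those called by DESeq2 in total cells and under the block in both sorts. Among the cycling genes, 2 and 1 had an unadjusted p under 0.05, DESeq2 called 0, and the block called 2 in each sort (Mcm5 and Mki67 in total, Birc5 and Mki67 in YFP+). Cells of the batch 1 cKO libraries were parted by whether they held Xist or Y-linked UMIs: Lifr was 1.499 and 1.58 times higher in the cells with Xist of cKO total and YFP+ naive B-like cells, St7 1.19 and 1.31 times and Kcnk13 1.24 and 1.30 times. The other ratios of cells with Xist over cells with Y-linked UMIs were 1.47 and 1.14 for Stau2, 1.16 and 1.20 for Tanc2, 2.63 and 0.894 for Havcr1 and 0.280 and 0.583 for Parm1. Lifr, St7, Kcnk13, Stau2 and Tanc2 were thus higher in the cells with Xist in both libraries, while Parm1 was lower and Havcr1 mixed. In cKO total cells those ratios rest on 10 against 4 Havcr1 UMIs and on 4 against 15 Parm1 UMIs.

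Outside naive B-like cells, Lifr was higher in cKO cells of every B-lineage class tested, and Kcnk13, St7 and Stau2 in most of them. The rule did not use these classes, so each gene was tested, with edgeR's quasi-likelihood test on class sums and Benjamini-Hochberg adjustment over all genes of the class. The classes come from the same mice and libraries, and free RNA can carry molecules between cells of a library, so they are not independent of the naive class. In 12 of the Lifr calls each control library held under 10 UMIs, so Lifr entered those tests through the cKO libraries. The share of all genes that passed in the same direction is given beside each count.

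In total splenocytes, 6 of 7 genes rose in pre-germinal center or activated B-like cells (1.31% of all genes did) and 6 of 7 in cycling cells (1.31%). In B1-like cells 4 of 6 tested genes rose (0.241%), in interferon-response B-like cells 4 of 5 (0.166%), in marginal zone B-like cells 2 of 6 (0.0267%) and in transitional B-like cells 2 of 6 (0.0273%). Lifr was the gene that rose in all 6 of these classes. In marginal zone and transitional B-like cells all 6 tested genes lay above 0 on the log2 scale of cKO over control, also where they did not pass, and differences between classes were not tested. In YFP+ cells, all 7 genes rose in pre-germinal center or activated B-like cells, where 7.55% of all genes did. There 6 of 7 rose in B1-like cells (1.12%), 5 of 7 in germinal center B-like cells (0.505%), 5 of 7 in cycling cells (1.57%), 5 of 7 in interferon-response B-like cells (0.339%), 5 of 7 in plasma cell-like cells (0.841%) and 3 of 7 in marginal zone B-like cells (0.143%). None of the 7 genes fell in any B-lineage class tested. Of these 60 calls, 21 were of genes with under 10 UMIs in each control library, 12 of them of Lifr, so that these genes passed the filter on low counts through the cKO libraries. The counts of genes called are therefore a description and support nothing on their own; fitted without the filter, all 21 calls were kept. Without control batch 1, the count rose in marginal zone B-like and transitional B-like total cells and fell in interferon-response B-like YFP+ cells. In pre-germinal center or activated B-like YFP+ cells 1 of the clusters of the class held 3 and 12 control cells against 559 and 651 cKO cells, so that part of this comparison is between different clusters. The same holds for cycling cells, where cluster 14 held 80 of 113 control and 82 of 209 cKO cells in total batch 1, and 287 of 2303 control and 240 of 374 cKO cells in YFP+ batch 2.

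**Figure D2:**
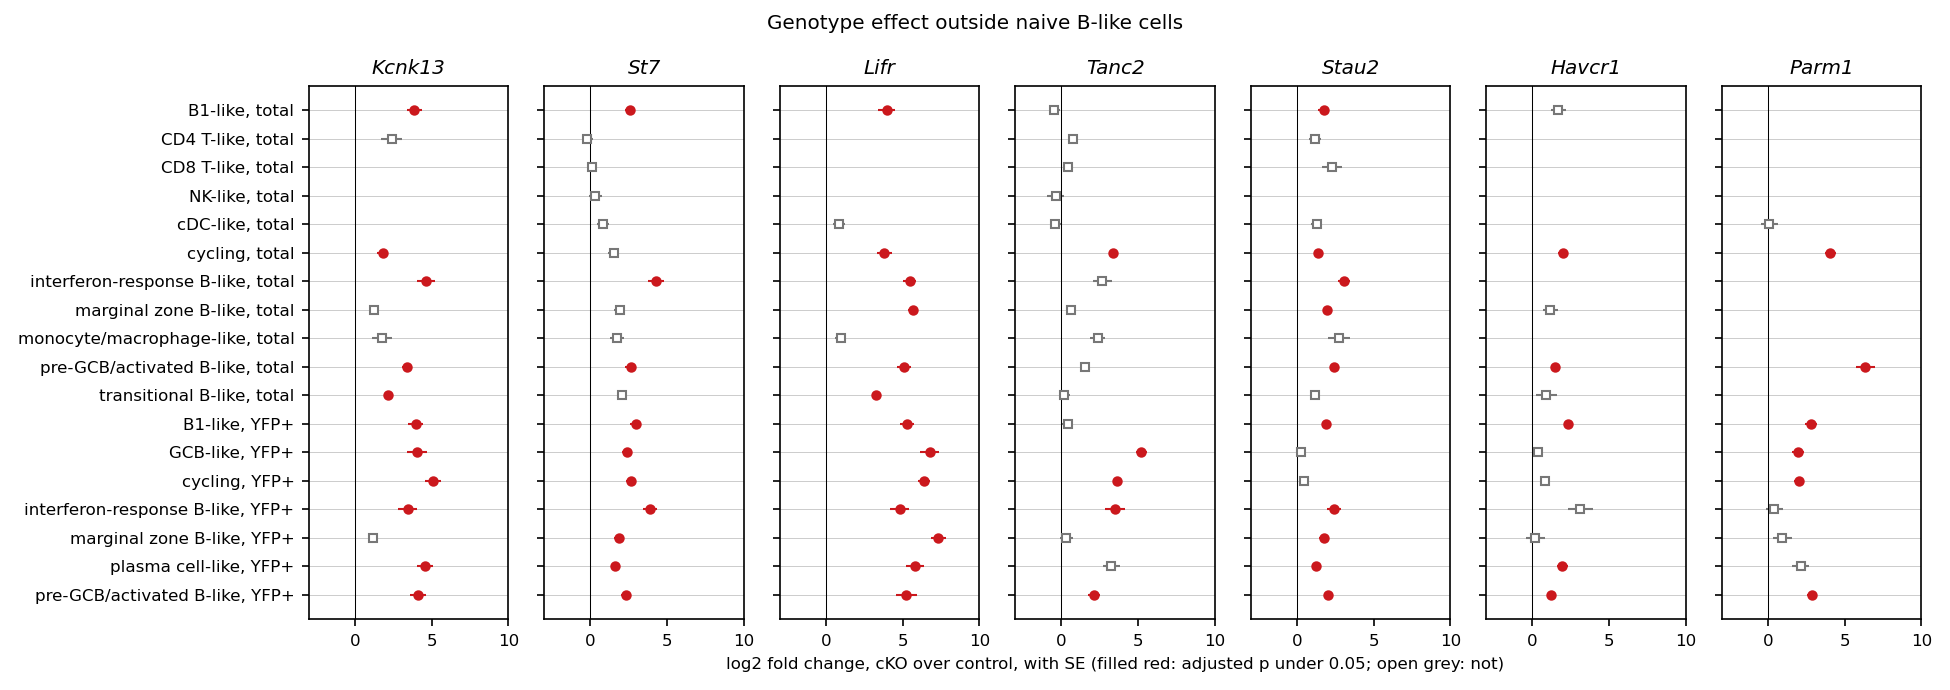
Log2 fold change of cKO over control for each gene in each class and sort tested outside naive B-like cells, with its SE from edgeR (filled red circles passed an adjusted p of 0.05, open grey squares did not, and empty rows were not tested). Lifr is filled in every B-lineage row, at 3.27 to 7.32, and no point is filled in the T, NK, dendritic cell or monocyte/macrophage rows.

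The batch number is shared by the groups and its libraries moved together, so fits with the batch as a block were made as well. With the block, the count rose from 4 to 5 genes in B1-like total cells, from 4 to 5 in interferon-response B-like total cells, from 2 to 3 in marginal zone B-like total cells, from 2 to 3 in transitional B-like total cells and from 6 to 7 in pre-germinal center or activated B-like total cells. In YFP+ cells it rose from 5 to 6 in cycling, from 5 to 6 in interferon-response B-like, from 3 to 4 in marginal zone B-like and from 5 to 6 in plasma cell-like cells. The block also raised the share of all genes called higher or lower in every class named here. In total cells that share became 3.99% in B1-like, 2.62% in interferon-response B-like and 0.906% in marginal zone B-like cells. It became 4.29% in transitional and 14.3% in pre-germinal center or activated B-like total cells. In YFP+ cells it became 4.49% in interferon-response B-like, 4.57% in marginal zone B-like and 2.15% in plasma cell-like cells. It became 31.5% in pre-germinal center or activated B-like and 14.3% in B1-like YFP+ cells. In cycling YFP+ cells 1225 of 12193 genes passed. The higher counts are therefore a description. Only St7 lost a call under the block, in cycling YFP+ cells (edgeR adjusted p = 0.126 with the block).

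Lifr, the leukemia inhibitory factor receptor, had the steepest contrasts in most B-lineage classes tested. Parm1 was steeper in pre-germinal center or activated B-like total cells (log2 6.36 against 5.09) and in cycling total cells (4.07 against 3.81). In marginal zone B-like cells, which stand at the blood border of the spleen, Lifr was at 0.698 and 0.494 CPM in control total libraries and at 32.1 and 30.1 CPM in cKO total libraries. In YFP+ cells of that class it had 0.690 CPM and no UMI in the controls and stood at 49.8 and 73.3 CPM in cKO. The control libraries were at the limit of detection and the cKO libraries far above it (log2 5.68, SE 0.32, edgeR adjusted p = 4.93e-05 in total; log2 7.32, SE 0.49, edgeR adjusted p = 6.72e-19 in YFP+). In germinal center B-like YFP+ cells Lifr stood at 0.121 and 0.246 CPM in control and at 26.6 and 19.9 CPM in cKO libraries (log2 6.76, edgeR adjusted p = 1.14e-05). Plasma cell-like YFP+ cells, which secrete antibody, had 0.164 and 0.148 CPM in control and 11.6 and 6.86 CPM in cKO libraries (log2 5.80, edgeR adjusted p = 8.62e-05). In these 3 YFP+ classes the controls held 0 to 5 Lifr UMIs per library, and in marginal zone B-like total cells 6 and 5. Lifr thus entered these tests through the cKO libraries. Fitted values against so few UMIs depend on the prior count and are no bounds. Transitional B-like cells, the newest B cells of the spleen, already carried Lifr in controls, at 15.4 and 10.8 CPM, against 108 and 136 CPM in cKO total libraries (log2 3.27, SE 0.28, edgeR adjusted p = 0.0108). Among cKO total B cells the order ran from cluster 0 (257 and 169 CPM), naive B-like (223 and 151 CPM), interferon-response B-like (171 and 142 CPM) and transitional B-like cells (108 and 136 CPM) to pre-germinal center or activated B-like (41.7 and 34.7 CPM), marginal zone B-like (32.1 and 30.1 CPM), germinal center B-like (28.3 and 26.1 CPM), B1-like (18.3 and 31.6 CPM), cycling (12.2 and 20.01 CPM) and plasma cell-like cells (8.86 and 3.92 CPM). The first 3 overlapped, as did B1-like cells with marginal zone, germinal center and cycling cells. The widest gap lay between transitional and pre-germinal center or activated B-like cells.

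Plasmacytoid dendritic cell-like cells, which make interferon, were the one named class with much Lifr in control mice. It stood there at 341 and 224 CPM in control total and at 284 and 345 CPM in cKO total libraries, on 45 to 65 cells each, and the genotypes overlapped. Cells of other unnamed clusters held Lifr at 164 CPM on 75 cells of control total batch 1. Conventional dendritic cell-like cells (17.9 and 21.7 CPM in control, 45.6 and 23.6 CPM in cKO total) and monocyte/macrophage-like cells (18.7 and 16.0 CPM, 29.8 and 36.7 CPM) did not pass the test.

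Kcnk13, the potassium channel gene, had another order among controls. In control total libraries its highest levels were in marginal zone B-like cells (25.8 and 18.6 CPM), monocyte/macrophage-like cells (22.4 and 8.01 CPM) and transitional B-like cells (14.4 and 9.36 CPM), against 2.27 and 1.94 CPM in naive B-like cells. In cKO total libraries marginal zone B-like (51.4 and 55.3 CPM), transitional B-like (52.9 and 50.02 CPM), pre-germinal center or activated B-like (49.4 and 60.7 CPM) and naive B-like cells (57.7 and 70.0 CPM) stood at nearly 1 level. Other classes of cKO mice stood apart from these, with 116 and 156 CPM in cluster 0, 67.7 and 23.8 CPM in monocyte/macrophage-like cells and 12.03 and 8.82 CPM in germinal center B-like YFP+ cells. In marginal zone B-like cells the log2 difference was 1.27 (SE 0.24, edgeR adjusted p = 0.278) in total and 1.18 (SE 0.31, adjusted p = 0.0788) in YFP+ cells, and it passed with the batch as a block (adjusted p = 0.000929 and 1.17e-07). It rose in pre-germinal center or activated B-like cells (log2 3.38 in total and 4.10 in YFP+), in B1-like cells (3.87 and 3.95) and in interferon-response B-like cells (4.65 and 3.43). Controls held only 3 and 3 Kcnk13 UMIs in pre-germinal center or activated B-like YFP+ cells and 2 and 7 in B1-like total cells. In interferon-response B-like cells they held 1 and 5 in total and 5 and 0 in YFP+ libraries. There Kcnk13 entered the test through the cKO libraries, so these values are a description. In germinal center B-like YFP+ cells it was at 0.606 and 0.657 CPM in control and at 12.03 and 8.82 CPM in cKO libraries (log2 4.01, SE 0.65, edgeR adjusted p = 0.00401). This rests on 5 and 8 UMIs in control and 14 and 8 UMIs in cKO libraries, and Kcnk13 entered the test through the latter. That call was lost without control batch 1 (3.90) or without cKO batch 1 (3.80). Other Kcnk13 calls were lost in cycling total cells without cKO batch 2 (1.66), in cycling YFP+ cells without control batch 1 (5.27) or control batch 2 (4.88), and in transitional B-like cells without likely doublets (2.04).

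St7 was present at a low level in nearly every class of control spleen and rose in B cells. Control total libraries had 32.2 and 16.9 CPM in CD4 T-like, 36.2 and 19.4 CPM in CD8 T-like and 32.4 and 13.9 CPM in NK-like cells, which is at or above the 15.4 and 9.40 CPM of naive B-like cells. In interferon-response B-like cells, which carry interferon-induced transcripts, it was at 24.6 and 3.95 CPM in control total libraries and at 219 and 300 CPM in cKO total libraries (log2 4.27, SE 0.51, edgeR adjusted p = 0.00241). In B1-like YFP+ cells it was at 20.04 and 12.2 CPM in control and at 83.9 and 150 CPM in cKO libraries (log2 2.95, SE 0.35, edgeR adjusted p = 0.00169). Of the St7 calls in B-lineage classes the one with the smallest contrast was in plasma cell-like YFP+ cells, at 19.2 and 14.6 CPM against 46.4 and 54.1 CPM (log2 1.61, SE 0.28, edgeR adjusted p = 0.00884), a call that was lost without likely doublets (1.19). In cycling total cells St7 did not pass (log2 1.53, SE 0.36, edgeR adjusted p = 0.0637). In transitional B-like total cells St7 stood at 22.9 and 11.8 CPM against 60.4 and 80.2 CPM and in marginal zone B-like total cells at 25.8 and 10.7 CPM against 61.3 and 72.9 CPM. Neither group overlapped, and neither passed the test (edgeR adjusted p = 0.232 and 0.278).

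Tanc2, the scaffold gene, had the largest of its own rises in germinal center B-like cells, the dividing cells in which antibodies mutate. In YFP+ cells of that class it stood at 4.604 and 3.45 CPM in control and at 152 and 140 CPM in cKO libraries (log2 5.21, SE 0.36, edgeR adjusted p = 1.03e-06). The cKO total libraries had 218 and 220 CPM there, with 28 and 15 cells in the control total libraries, too few for a test. Cycling cells followed, at 7.73 and 9.90 CPM against 75.6 and 107 CPM in total (log2 3.37, SE 0.29, edgeR adjusted p = 0.000498) and 7.40 and 3.95 CPM against 57.1 and 79.6 CPM in YFP+ libraries (log2 3.64, SE 0.30, adjusted p = 0.000667). In B1-like cells Tanc2 stood at 37.1 and 16.3 CPM in control total libraries and at 17.6 and 18.4 CPM in cKO total libraries (log2 −0.46, SE 0.36, edgeR adjusted p = 1.0), the groups overlapping. In marginal zone and transitional B-like cells the values were 4.35 to 11.5 CPM in all groups of at least 50 cells, without a call. In interferon-response B-like YFP+ cells Tanc2 had 1 and 3 UMIs in control and 48 and 119 UMIs in cKO libraries. It thus entered the test through the cKO libraries, so the call (log2 3.5, SE 0.65, edgeR adjusted p = 0.00814) is a description. The call was lost without control batch 1 (2.44) or cKO batch 2 (2.89), and under DESeq2.

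Stau2, the RNA-binding protein gene, did not pass the test in the YFP+ classes where its control level was highest. In germinal center B-like YFP+ cells it was at 104 and 70.1 CPM in control and at 106 and 102 CPM in cKO libraries (log2 0.28, SE 0.31, edgeR adjusted p = 0.998), and in cycling YFP+ cells at 70.7 and 54.5 CPM against 84.8 and 88.0 CPM (log2 0.48, SE 0.19, adjusted p = 0.326; 0.0192 with the block). In germinal center B-like cells of total spleen, on 28 and 15 control cells and without a test, it stood at 71.4 and 71.6 CPM in control and at 138.6 and 134.5 CPM in cKO libraries. The control level in naive B-like cells was lower, and the cKO level about the same as in these classes. In pre-germinal center or activated B-like cells it was at 18.2 and 10.6 CPM in control total libraries and at 79.9 and 68.7 CPM in cKO total libraries (log2 2.43, SE 0.28, edgeR adjusted p = 0.00513). Unlike in YFP+ cells, it passed in cycling total cells, at 40.2 and 29.0 CPM against 76.7 and 98.6 CPM (log2 1.36, SE 0.23, edgeR adjusted p = 0.0169). In marginal zone B-like cells it stood at 15.0 and 11.9 CPM against 50.9 and 53.3 CPM in total (log2 1.96, SE 0.23, edgeR adjusted p = 0.022). Calls of Stau2 were lost in B1-like total cells without control batch 2 or cKO batch 2 (where it was 1.44), in interferon-response B-like YFP+ cells without control batch 1 (1.92), in marginal zone B-like YFP+ cells without cKO batch 1 (1.69), and in plasma cell-like YFP+ cells without any 1 of the 4 libraries (1.10 to 1.42).

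Havcr1, the TIM-1 gene, was highest in plasmacytoid dendritic cell-like cells (112 and 93.1 CPM in control total, 88.6 and 102 CPM in cKO total) and in germinal center B-like cells. In germinal center B-like YFP+ cells it was at 71.0 and 40.1 CPM in control and at 61.0 and 78.3 CPM in cKO libraries (log2 0.36, SE 0.33, edgeR adjusted p = 0.998), the groups overlapping. It rose in B1-like YFP+ cells, from 14.7 and 9.37 CPM to 53.5 and 62.6 CPM (log2 2.35, SE 0.28, edgeR adjusted p = 0.00169), and in pre-germinal center or activated B-like YFP+ cells, from 29.0 and 31.7 CPM to 65.9 and 61.8 CPM (log2 1.22, SE 0.24, adjusted p = 0.00953). These are classes whose control level lay between those of naive and germinal center B-like cells. The second call was lost without cKO batch 2 (1.23). In plasma cell-like YFP+ cells (log2 1.95, edgeR adjusted p = 0.0159) the call was lost without control batch 1 (2.23), control batch 2 (1.69) or cKO batch 2 (1.34), and without likely doublets (2.97).

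Parm1, the mucin-like protein gene, was highest in memory B-like cells, which outlast a germinal center response. In memory B-like cells it stood at 451 and 199 CPM in the control YFP+ libraries, on 472 and 732 cells, and at 395 and 517 CPM in the cKO YFP+ libraries, on 52 and 41 cells. The genotypes overlapped. T-bet+ B-like cells had 71.0 and 24.0 CPM and germinal center B-like cells 45.9 and 19.9 CPM in control YFP+ libraries. In the latter class cKO YFP+ libraries had 136 and 111 CPM (log2 1.96, SE 0.37, edgeR adjusted p = 0.0159). In cycling total cells it stood at 6.57 and 2.93 CPM against 64.3 and 94.0 CPM (log2 4.07, SE 0.35, edgeR adjusted p = 0.000498). In pre-germinal center or activated B-like total cells the controls held 0.423 CPM, which is 1 UMI, and no UMI, against 16.2 and 19.1 CPM in cKO libraries (log2 6.36, SE 0.64, edgeR adjusted p = 0.00219), so that Parm1 entered the test through the cKO libraries. The cycling class pools 3 clusters that the genotypes filled differently. In marginal zone B-like YFP+ cells (2.62 and 1.57 CPM against 4.90 and 2.22 CPM) it did not pass the test.

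**Figure D3:**
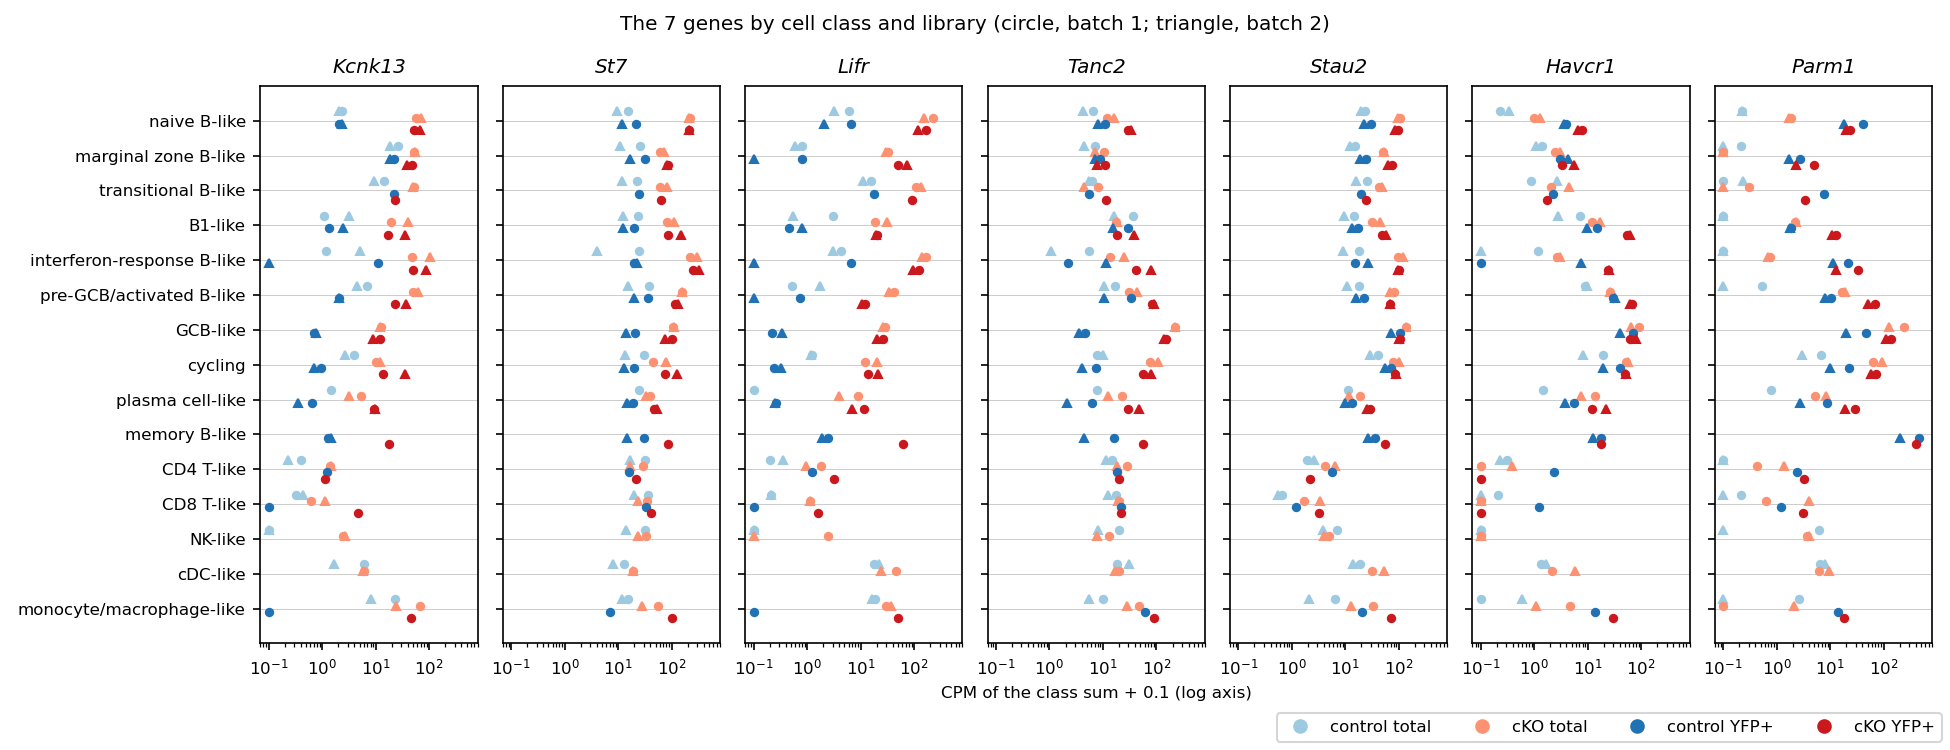
Level of each gene in 15 classes, where a library held at least 50 cells, in CPM of the class sum plus 0.1 on a log axis, for every library (circles batch 1, triangles batch 2). Among the classes plotted, which leave out cluster 0, unnamed and plasmacytoid dendritic cell-like cells, Lifr of cKO libraries stands highest in naive, interferon-response and transitional B-like cells, Tanc2 in germinal center B-like cells (218 and 220 CPM) and Parm1 in memory B-like cells (395 CPM).

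In T, NK and myeloid cells of total splenocytes none of the 7 genes passed the test. The genes tested and the share of all genes called higher were 4 genes and 3.03% in CD4 T-like cells, 3 genes and 0.0885% in CD8 T-like cells, 2 genes and 0% in NK-like cells, 5 genes and 0% in conventional dendritic cell-like cells, and 5 genes and 0% in monocyte/macrophage-like cells. Where no gene passed, edgeR's unadjusted p was under 0.05 for 128 genes in NK-like, 175 in conventional dendritic cell-like and 368 in monocyte/macrophage-like cells, and DESeq2 called 0, 0 and 12 genes. With the batch as a block, 3 of the 7 genes passed in CD4 T-like cells, 1 in CD8 T-like and 4 in monocyte/macrophage-like cells, where 24.2%, 7.68% and 5.39% of all genes passed in either direction. The CD4 and CD8 T-like clusters were also filled differently by the genotypes. Some of the 7 genes passed in CD4 T-like, CD8 T-like, conventional dendritic cell-like and monocyte/macrophage-like cells when 1 library was left out. Those fits have a lone library in 1 group, and the share of all genes passing is not given, so nothing is read from them.

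The values in these cells can be set beside a B cell gene that T cells lack. Cd79a, a part of the B cell receptor, stood in CD4 T-like cells at 1.04% and 1.18% of its naive B-like level in the cKO total libraries. Kcnk13 stood there at 2.26% and 1.91% of its naive B-like level, or 1.30 and 1.33 CPM, and Lifr at 0.778% and 0.556%, or 1.73 and 0.842 CPM. The Kcnk13 and Lifr levels of cKO T cells were thus, relative to naive B-like cells, near that of Cd79a, at up to 2.26% of the naive B-like level; the part of free B cell RNA in them was not tested. St7 (29.4 and 16.8 CPM in cKO against 32.2 and 16.9 CPM in control CD4 T-like cells) and Tanc2 (28.5 and 18.5 CPM against 14.5 and 11.2 CPM) were far above such shares in both genotypes. Stau2 stood at 3.85% and 6.66% of its naive B-like level. In monocyte/macrophage-like cells Cd79a reached 21.1% and 7.27% of its naive B-like level in the cKO total libraries. Kcnk13 stood there at 67.7 and 23.8 CPM in cKO, which is 117% and 34.0% of the naive B-like level, and at 22.4 and 8.01 CPM in control libraries (log2 1.74, SE 0.64, edgeR adjusted p = 1.0; 0.00254 with the block).

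Between sorts of 1 genotype, Parm1 had the widest difference in naive B-like cells, and it was higher in YFP+ than in total cells of both genotypes. The genes were chosen on levels in these same class sums, so the sort values are a description, without a test. In control mice Parm1 went from 0.130 and 0.121 CPM in total to 41.3 and 17.95 CPM in YFP+ libraries (log2 7.78, SE 0.61), and in cKO mice from 1.79 and 1.63 CPM to 23.1 and 19.5 CPM (log2 3.65, SE 0.20). Havcr1 moved the same way, by log2 4.22 in control (SE 0.48) and 2.76 in cKO mice (SE 0.29), and Tanc2 was higher by 1.18 in cKO YFP+ cells (SE 0.22). Kcnk13 (−0.07), St7 (0.01), Stau2 (−0.13) and Lifr (−0.36) differed less between the cKO sorts. As background, the edgeR fits called 0.0501% of all genes between the control sorts and 0.00823% between the cKO sorts, in either direction.

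A transcript of antibody-secreting cells moved with Parm1 and Havcr1 in control mice. Jchain, of plasma cells, stood at 12.2 and 19.6 CPM in control total libraries and at 197 and 143 CPM in control YFP+ naive B-like cells. In cKO mice it stood at 12.4 and 31.2 CPM in total and at 25.7 and 15.2 CPM in YFP+ libraries. In cKO mice the batches went different ways. The part of such cells or their RNA in the Parm1 and Havcr1 levels was not tested. In cluster 0 none of the 7 genes passed between the cKO sorts, nor did any gene (0%), with 399 genes at an unadjusted edgeR p under 0.05 and 44 called by DESeq2. With the block, 6 of the 7 genes passed there, among 13.3% of all genes. Parm1 stood at 5.40 and 6.40 CPM in total and at 55.1 and 36.6 CPM in YFP+ libraries of cluster 0 (log2 2.99, SE 0.26, edgeR adjusted p = 0.318).

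The cKO effect in YFP+ over that in total naive B-like cells is built on the values the genes were chosen by, so it is given as a description. On the log2 scale it was −4.13 for Parm1 (SE 0.75) and −1.46 for Havcr1 (SE 0.52), and it lay between −0.46 and 0.29 for the other 5 genes. In the same fit over all 8 libraries, 0% of all genes passed, with 161 genes at an unadjusted edgeR p under 0.05, 8 called by DESeq2, of which 1 was among the 7 genes, and 13 under the block.

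In single cells, more than 58% of cKO naive B-like cells had a UMI of at least 1 of the 7 genes, against 7.49% to 15.9% of control cells. Each cell was thinned to 2000 UMIs, and the 10 to 218 cells of a library with fewer were left out, as the share depends on depth. The share was 9.25% (8.21% to 10.4%, exact binomial 95% interval, for counting error only) and 7.49% (6.66% to 8.38%) in control total libraries. It was 60.1% (58.2% to 61.9%) and 58.5% (56.6% to 60.3%) in cKO total libraries. The YFP+ libraries gave 15.9% (14.3% to 17.5%) and 10.3% (9.08% to 11.6%) in control and 60.8% (58.8% to 62.8%) and 58.9% (56.8% to 61.1%) in cKO. The 2 sorts of cKO mice gave nearly the same share, and no control library came near it. Without thinning the cKO shares were 81.3% and 83.3% in total and 82.0% and 83.0% in YFP+ libraries, against control shares of 19.5% and 13.8% in total and 23.4% and 15.1% in YFP+ libraries. In cluster 0 the thinned share was 81.0%, 82.5%, 78.2% and 80.6%.

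St7 and Lifr were the genes found in most cKO naive B-like cells. St7 was found in 2.97% and 1.90% of control total and in 29.1% and 30.1% of cKO total cells, and Lifr in 1.02% and 0.651% of control total and in 31.1% and 25.1% of cKO total cells. Stau2 rose from 3.88% and 3.74% to 17.3% and 15.9% of total cells and Kcnk13 from 0.530% and 0.407% to 9.87% and 10.1%. Tanc2 was found in 1.02% and 0.922% of control against 2.16% and 2.89% of cKO total cells, and in 1.83% and 1.31% of control against 4.93% and 5.07% of cKO YFP+ cells. Havcr1 was found in 1 of 2833 and 0 of 3687 control total cells, the latter allowing a share of up to 0.0814% of cells with a UMI at this depth (before thinning that library held 4 Havcr1 UMIs), and in 0.183% and 0.180% of cKO total cells. Parm1 was found in 0.220% and 0.216% of cKO total cells, and in 3.57% and 2.45% of control YFP+ and 3.03% and 2.68% of cKO YFP+ cells. The latter 2 genes thus marked few naive B-like cells of either genotype. CD4 T-like cells, which should lack Kcnk13 and Lifr, gave 0.421% and 0.208% for Kcnk13 and 0.350% and 0.312% for Lifr in cKO total libraries, at median depths of 6126 and 6735 UMIs against 5391 and 5587 UMIs for naive B-like cells, before thinning. In the control total libraries 1 of 1341 and 1 of 1334 CD4 T-like cells had a Kcnk13 UMI (0.0746% and 0.0750%), below the 0.530% and 0.407% of naive B-like cells of the same libraries.

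**Figure D4:**
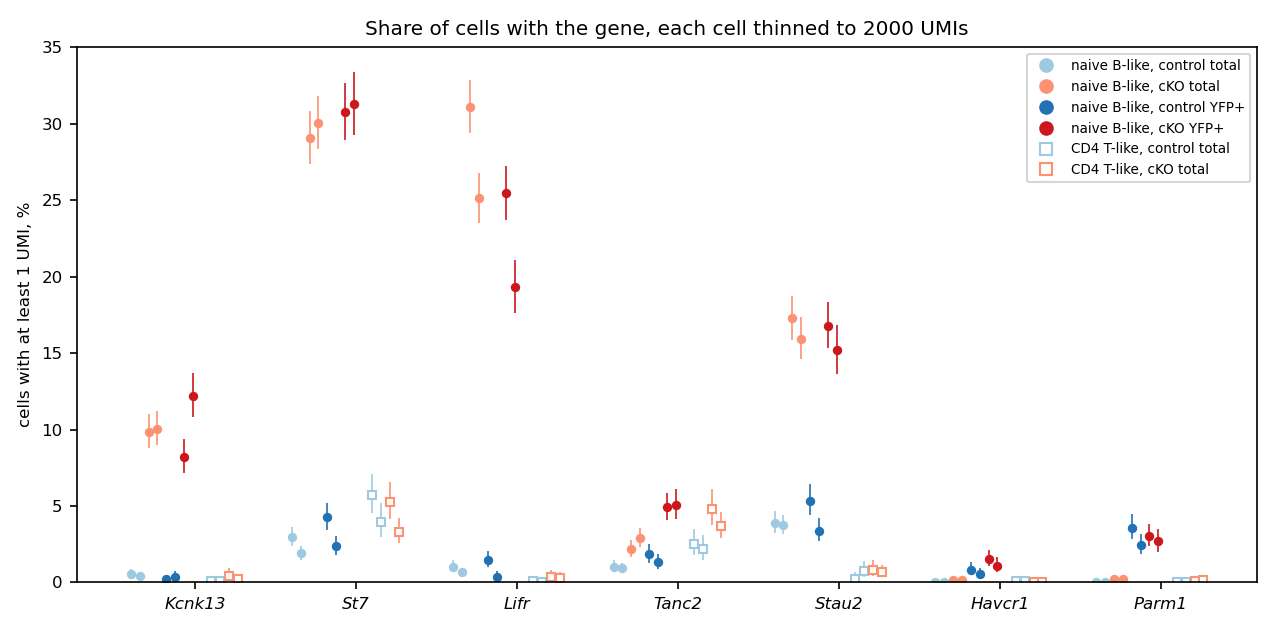
Share of cells with at least 1 UMI of each gene at 2000 UMIs per cell, in naive B-like cells of the 8 libraries (filled) and CD4 T-like cells of the 4 total libraries (open squares), with exact binomial 95% intervals for counting error. Kcnk13, St7, Lifr and Stau2 separate cKO from control naive B-like cells, with St7 at 29.1% to 31.3% in the 4 cKO libraries, while Parm1 separates YFP+ from total cells.

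For Lifr and St7, the higher level in cKO mice was carried by many cells with few UMIs each. A cKO total naive B-like cell with a Lifr UMI held 1.47 and 1.27 of them on average at 2000 UMIs per cell, and the 31.1% and 25.1% of cells with one compare with 36.8% and 27.3% if the same UMIs fell on the cells at random (a Poisson spread). St7 gave 1.496 UMIs and 1.39 UMIs per positive cell, and 29.1% and 30.1% of cells observed against 35.3% and 34.2% under a random spread. For Kcnk13 (9.87% and 10.1% observed, 10.9% and 11.6% under a random spread) and Stau2 (17.3% and 15.9% observed, 18.7% and 17.3%) the shares were closer still. The UMIs of these 4 genes were thus only a little more clumped than a random spread over the naive B-like cells gives. Parm1 in YFP+ libraries was more clumped: positive cells held 2.05 and 1.41 UMIs each in control and 1.43 and 1.33 UMIs in cKO libraries, and the 3.57% and 2.45% of control cells with one compare with 7.07% and 3.41% under a random spread. Havcr1 in YFP+ libraries, at 1.00 to 1.05 UMIs per positive cell, was found in 0.821% and 0.550% of control and 1.53% and 1.09% of cKO cells.

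The 7 genes were found in the same cells somewhat more often than independence within a library gives. If each gene were found in cells independently, 3.47% and 3.01% of cKO total and 3.98% and 3.61% of cKO YFP+ naive B-like cells would have 3 or more of the 7 genes at 2000 UMIs. Observed were 6.09%, 4.98%, 5.14% and 5.51%. The variance of the number of genes per cell was 1.23, 1.18, 1.16 and 1.16 times that under independence in cKO libraries and 0.984, 0.991, 1.05 and 1.02 times in control libraries. So the cells without any of the genes (39.9%, 41.5%, 39.2% and 41.1%, against 35.5%, 38.3%, 35.8% and 37.7% under independence) and those with several were both somewhat more frequent. A cell of these libraries held 0.845 to 0.9075 of the 7 genes on average, and Havcr1 and Parm1 were found in few cells. A split into cells with all and cells with none could therefore not be seen at this depth. In cluster 0 the variance ratio was 1.20, 1.09, 1.15 and 1.11. There Havcr1 and Parm1 were found together 2.02 and 2.40 times as often as independence gives in the YFP+ libraries, the highest of 21 pairs, and in batch 2 Lifr and Havcr1 0.547 times as often, the lowest. Cells of 1 library are no replicates, and cells of like depth can still differ in subset, so these ratios carry no test.

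**Figure D5:**
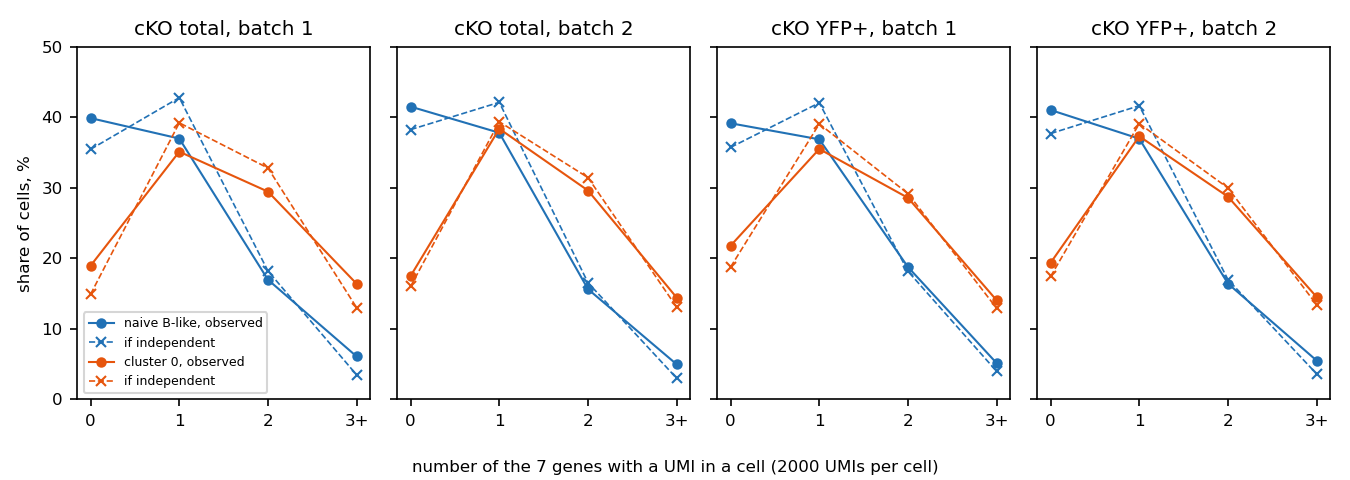
Share of cells of the 4 cKO libraries by the number of the 7 genes with a UMI, at 2000 UMIs per cell, observed (solid lines) and if the genes were found independently (dashed lines), for naive B-like cells (blue) and cluster 0 (orange). Observed shares lie above the dashed lines at 0 genes and at 3 or more genes, for example 6.09% against 3.47% in naive B-like cells of cKO total batch 1.

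Levels of the 7 genes were also compared over 108 class sums of at least 50 cells, cluster 0 included and unnamed cells, other T cells and cells with T and B markers left out. Pearson correlations of log2(CPM + 1) were highest among Kcnk13, Lifr and St7, at 0.752 for Kcnk13 and Lifr, 0.740 for Kcnk13 and St7 and 0.720 for St7 and Lifr. Stau2 went with both these and the other genes, at 0.636 to 0.662 with Kcnk13, Lifr and St7, 0.681 with Havcr1 and 0.519 with Parm1. Havcr1 and Parm1 gave 0.632, but each gave 0.337 or less with Kcnk13, Lifr and St7. Tanc2 lay between, at 0.590 with St7, 0.549 with Havcr1 and 0.321 with Kcnk13. The sums share libraries and classes, so no p is given, and the genotype contrast the genes were chosen for is part of each value. Outside the 7, the genes whose pattern was most like their mean included Sypl and 4933406C10Rik (both 0.786), Il4i1 (0.785), Ryr2 (0.778), Cltc (0.777), Snx29 (0.767), Dexi (0.762), Rab35 (0.753) and Lpxn (0.729). Il4i1, a secreted amino acid oxidase induced by interleukin 4, stood at 35.8 and 46.1 CPM in control total libraries, 147 and 238 CPM in cKO total, 47.0 and 54.4 CPM in control YFP+ and 138 and 242 CPM in cKO YFP+ naive B-like cells. Ryr2, a calcium channel of the endoplasmic reticulum, stood at 18.4 and 10.1 CPM, 46.0 and 42.4 CPM, 27.5 and 16.7 CPM and 98.9 and 69.0 CPM in the same order. Both were higher in every cKO library than in any control library, as were the 7 genes in total cells.

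None of the paralogs and partners of the 7 genes passed the test in naive B-like cells. Of 27 such genes, 15 were tested in total and 16 in YFP+ cells and none passed, with medians of −0.04 and −0.03 on the log2 scale. An unadjusted edgeR p under 0.05 was found for 2 and 4 of them, DESeq2 called 0, and the batch block called 5 in total (Socs3 among them, and Il6st, Jak2, Kcnk5 and St7l, 2 of the 5 higher and 3 lower) and 4 in YFP+ cells (Clcf1, Il6st, Kcnk5 and Timd2, 2 higher and 2 lower). The partner of Lifr at the membrane, Il6st, stood at 98.1 and 46.8 CPM in control total libraries, 43.8 and 22.3 CPM in cKO total, 84.3 and 46.5 CPM in control YFP+ and 41.6 and 16.0 CPM in cKO YFP+ libraries. It was lower in cKO within each batch (log2 −1.06, SE 0.41, edgeR adjusted p = 0.837 in total), while the batches differed as much. Lif was listed with at most 0.065 CPM in any library. Downstream of the receptor, Stat3 stood at 154 and 138 CPM in control total libraries and at 173 and 148 CPM in cKO total libraries, and Socs3, a gene that STAT3 induces, at 8.18 and 13.5 CPM against 18.1 and 20.6 CPM (log2 0.90, SE 0.28, edgeR adjusted p = 0.575). Stau1, the paralog of Stau2, stood at 66.6 and 44.3 CPM against 58.6 and 42.3 CPM. Kcnk5, a paralog of Kcnk13, stood at 15.6 and 10.6 CPM against 10.4 and 5.67 CPM. St7l stood at 23.1 and 15.9 CPM against 17.0 and 12.4 CPM, and Tanc1 at 2.99 and 1.76 CPM against 2.94 and 2.35 CPM. Among Il6st, Stat3, Socs3, Stau1, Kcnk5, St7l and Tanc1, Socs3 alone was higher in both cKO total libraries than in both control libraries. Among the other partners tested in total cells, Clcf1 was as well, at 32.6 and 31.5 CPM in control and 38.0 and 33.6 CPM in cKO libraries. Of all genes tested in total naive B-like cells, 10.3% were.

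Of the neighboring genes of the 7, those tested did not pass. Those on either side of Kcnk13, Tdp1 (14.2 to 15.6 CPM in control and 11.1 to 14.0 CPM in cKO total) and Psmc1 (38.4 and 44.1 CPM in control, 40.0 and 41.7 CPM in cKO total), did not pass the test. Neither did Capza2 beside St7, at 141 and 167 CPM in control and 157 and 166 CPM in cKO total libraries. Osmr and Egflam, on either side of Lifr, were at 0.325 CPM or less in all 8 libraries and were not tested. Antisense genes that overlap St7 or Stau2 were at 0.302 CPM or less and were not tested either. Timd2, next to Havcr1 and of the same TIM family, stood at 0.443 and 0.517 CPM in control YFP+ and at 1.81 and 2.32 CPM in cKO YFP+ naive B-like cells (log2 2.15, SE 0.55, edgeR adjusted p = 0.204), and it passed with the batch as a block.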

How the data were processed

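UMI counts per gene and cell barcode were deposited by the authors as 1 filtered matrix for each of the 8 libraries, made with the SeekOne DD 3′ kit against GRCm38 (mm10) per the labels. Which aligner and counter made them was not given in the sources used here. Of 83967 cells, 83704 were kept, which had over 200 UMIs in over 100 genes with no more than 10% of UMIs mitochondrial. Between 51 and 102 barcodes were shared by any pair of libraries.

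Counts were scaled to 10000 per cell, and 2000 variable genes without the 7 members gave 30 principal components and a graph of 20 neighbors, clustered by Leiden at resolution 1 (igraph 0.11.9, Python 3.11.15), all cells first and B and T cells again. Clusters were named X-like by scores of marker lists, at least 3 markers being needed, with score floors of 0.3 and 0.5 set after the clusters were seen. Doublet scores were computed and the highest 8% of each library were removed as an alternative only. Cells with T and B cell markers together were kept apart.

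UMIs were summed per class and library and given as CPM. Classes with at least 50 cells in each library were tested in edgeR 4.0.16 (R 4.3.3; quasi-likelihood, TMM, filterByExpr, Benjamini-Hochberg, threshold 0.05), SE being the log2 fold change over the root of F. DESeq2 1.42.0, RLE scaling, no filter on low counts, the batch as a block, each library left out, no doublets, resolution 1.5 and a stricter cell filter (1000 UMIs, 5%) were alternatives. The test was also run on simulated counts of a single class without a batch effect. That run does not cover the shared deviations given next. The batch number is stated by the labels to be shared by groups, and deviations of same-numbered libraries from their group means correlated at 0.59 to 0.756 over 12622 genes in every pair of groups. Libraries of a group differed by far more than counting noise (chi-square over degrees of freedom of 38.5 to 73.3).

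For shares, cells were thinned to 2000 UMIs (4000 and no thinning as alternatives). Intervals and limits (3 counts for a count of 0) cover counting error only. The members, gene lists and tests were chosen with earlier results of these data known. Named are the 7 members, their listed paralogs and partners, activation and cycling genes, neighbors, Eif3e, B lineage reference genes and the 10 genes most alike, of which some are not reported here; Jchain, Ighd and Xist were named after their values were seen, as values that moved with a result or checks of a label. Read counts were not split between near-identical copies here, and levels are compared within a gene only.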

Additional observations from a re-analysis of the deposited data

Results flagged for a closer look

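St7 was lower in cKO than in control CD4 T-like cells of total spleen in both batches, by −0.0897 on the log2 scale of the CPM summed over the 2 libraries of a genotype, where 18 of the 20 classes and sorts measured had it higher in both batches. This was picked out because both batches moved the opposite way from that in those 18. In the 1 class left, CD8 T-like cells, the batches went different ways. The difference between classes was not tested, and in the edgeR fit the St7 value in CD4 T-like cells was −0.20 (SE 0.37, edgeR adjusted p = 0.909).

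Tanc2 was lower in cKO than in control NK-like cells in both batches, by −0.41 on the same scale, where 15 of 20 classes and sorts had it higher in both batches and 4 were mixed. The difference between classes was not tested, and the edgeR value was −0.37 (SE 0.55, edgeR adjusted p = 1.0).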

How the results depend on the processing

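Of 855 recomputed values, 763 kept direction and side of the threshold, 50 gained a call, 35 lost one and 7 changed sign. The counts of the 7 genes called changed by over 1.5 times as follows. With the batch as a replicate block, 3 genes passed in CD4 T-like, 1 in CD8 T-like and 4 in monocyte/macrophage-like cells, 4 between the control sorts, 4 between the cKO sorts and 6 between the sorts of cluster 0. Between these sorts 6.52%, 15.5% and 13.3% of all genes passed with the block. Here and below, counts for the naive B-like sorts and the interaction use values the genes were chosen by, so they are a description only. The block ended 1 call, St7 in cycling YFP+ cells, and changed no other call to not passing. Without a filter on low counts, 1, 2, 4, 4 and 4 genes passed in CD4 T-like, CD8 T-like, marginal zone B-like, monocyte/macrophage-like and transitional B-like total cells, and 2, 2 and 3 in the sort comparisons of control, cKO and cluster 0. With DESeq2, 4 passed in marginal zone B-like total cells, 2, 3 and 3 in the sort comparisons and 1 in the interaction. Of all genes, DESeq2 called 12 in those marginal zone B-like cells, 62, 32 and 44 in the sort comparisons and 8 in the interaction. In transitional B-like cells 1 passed with RLE scaling, without doublets, at resolution 1.5 and with the stricter cell filter. Without doublets 3 passed in plasma cell-like YFP+ cells and 0 between the control sorts, and the St7 sort value of cKO mice turned to −0.02. At resolution 1.5, 0 passed between the cKO sorts. DESeq2 also ended the calls of Stau2 in B1-like and plasma cell-like cells, Kcnk13 in cycling total, Havcr1 in pre-germinal center or activated B-like total and Tanc2 in interferon-response B-like YFP+ cells. The cause of these changes was not tested. The share of all genes called is not given beside the counts without the filter, with RLE scaling, without doublets, at resolution 1.5 and with the stricter cell filter. Those counts are a description only.

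Leaving out 1 library at a time, the lone library left being assumed to vary like the other group, changed how many of the 7 genes passed. This was so in CD4 T-like, CD8 T-like, conventional dendritic cell-like, monocyte/macrophage-like, marginal zone B-like and transitional B-like total cells. It was also so in interferon-response B-like YFP+ cells and between the sorts. The medians in naive B-like total cells ran from 3.70 to 3.84. The St7 difference in CD4 T-like cells ran from −0.65 to 0.33, and the cKO sort values of Kcnk13 from −0.33 to 0.16 and of St7 from −0.06 to 0.08. The count of all genes called moved by over 1.5 times in 23 of 24 comparisons with the block, 21 of 24 without the filter, 14 of 24 with DESeq2, 8 of 23 at resolution 1.5 and 5 of 24 without doublets.

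The median log2 difference of the 7 genes in naive B-like total cells was 3.77 and became 2.46 with resting B cells taken cell by cell, 3.82 without doublets, 4.21 at resolution 1.5, 3.84 with TMM-scaled totals and 4.71 with cluster 0 counted in (chosen after seeing the data); in YFP+ cells it was 1.82 and became 2.88 with the gate and 3.37 with cluster 0. The share of naive B-like cells with any of the 7 genes depended on depth: at 4000 UMIs and without thinning it averaged 77.55% and 82.31% for cKO total against 14.61% and 16.63% for control total, and 79.49% and 82.48% for cKO YFP+ against 25.21% and 19.29% for control YFP+ libraries. The variance ratios at 4000 UMIs were 1.316, 0.982, 1.224 and 1.089 in the same order. Havcr1 and Parm1 in total naive B-like cells, and Lifr in most control classes, rest on few UMIs, which limits their ratios.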

Other observations

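Classes too small for a test held some of the highest levels of the 7 genes. In plasmacytoid dendritic cell-like cells Tanc2 stood at 42.6 and 42.1 CPM in control total libraries and at 22.2 and 31.9 CPM in cKO total libraries, the cKO libraries being the lower ones, unlike in most B cells. St7 stood in the same cells at 50.8 and 21.03 CPM in control and at 38.3 and 27.9 CPM in cKO total libraries, overlapping. In neutrophil-like cells St7 stood at 98.7 CPM on 120 cells of control total batch 1 and at 79.3 CPM on 83 cells of cKO total batch 1, the highest St7 level of any control class with more than 50 cells. In memory B-like YFP+ cells of batch 1, St7 stood at 30.4 CPM in control and 86.5 CPM in cKO, Lifr at 2.32 and 62.9 CPM and Tanc2 at 15.9 and 57.0 CPM, while Havcr1 stood at 17.7 CPM in both genotypes. In batch 2 Havcr1 stood at 12.5 CPM in control and at 57.7 CPM on 41 cKO cells of that class.

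Counting the classes and sorts with at least 50 cells in the libraries compared, Kcnk13 and Lifr were higher in cKO in both batches in 19 of 19 each, Stau2 in 19 of 20, St7 in 18 of 20, Tanc2 in 15 of 20, Havcr1 in 14 of 15 and Parm1 in 12 of 14. These counts include naive B-like cells, which the genes were chosen on, and classes that share libraries. Classes in which a gene had few UMIs were left out for that gene, so the totals differ between genes. NK-like cells were left out for Lifr, which had no UMI there in batch 2 of either genotype. They were also left out for Parm1, at 6.03 and 0 CPM in control and 3.59 and 3.85 CPM in cKO total libraries. The like share of all genes was not counted.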
